A study of Homo sapiens with 4 samples.

Results

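Intronic H3K27ac peaks far from start sites were taken from the peak lists of SK-N-BE(2)C cells with and without depletion of *SNHG1*. A peak was a member when its midpoint lay on chromosomes 1 to 22, more than 5000 bp from every protein-coding start site of GENCODE, inside the body of a protein-coding gene and outside every annotated exon. The control list (sgCtrl) held 17990 members among 63051 peaks of these chromosomes (63699 in all), and the *SNHG1*-depletion list (sgSNHG1) held 12481 among 49412 (50119 in all). Every coordinate is on GRCh38 (hg38), counted from 1.

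SK-N-BE(2)C is a human neuroblastoma (NB) cell line in which the oncogene *MYCN* is amplified. The sgCtrl cells are labelled wildtype and received Cas9 with a non-targeting control gRNA, and the sgSNHG1 cells are labelled SNHG1 knockout and received Cas9 with gRNAs against *SNHG1*, a long non-coding RNA that hosts small nucleolar RNAs. Both were co-transfected with a reporter plasmid, selected with puromycin, sorted as single cells and expanded as clones. Which clone of the knockout was used for ChIP-seq is not given in the sources used here. The authors state that *SNHG1* was not knocked out completely but that its expression was significantly lower. Each group had 2 ChIP-seq samples, which the authors pooled before peak calling, so that 1 list per group exists and no difference below was tested against replicate error. Intervals are 95% and cover counting error only, and the parts played by *SNHG1*, by the depth of the pooled libraries and by differences between clones cannot be told apart.

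H3K27ac is the acetylation of lysine 27 of histone H3, placed by the acetyltransferases p300 and CBP on nucleosomes beside active promoters and enhancers. Enhancers often lie inside the introns of long genes, where they can act on the host gene or on another gene at a distance through looping of the chromatin. In neuroblastoma cells such elements are bound by the lineage factors of sympathetic neurons, several of which recognise E-box, GATA or homeodomain motifs.

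The lists carried the identity of the cell line. All 10 of 10 neuroblastoma markers, among them *HAND2*, *GATA3*, *ISL1*, *DBH*, *TH* and *CHGA*, had a peak within 3000 bp of a start site in either list. Of 10 markers of blood, liver, epithelium, endothelium and heart, 2 had one in sgCtrl (*APOA1* and *CDH5*) and 1 in sgSNHG1 (*CDH5*). The depth per sample is unknown, and the number of fragments over a summit was recovered from the fold enrichment and the −log10 p of the peak.

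The DNA under the members was rich in G and C, and 8 windows of 200 bases centred on a summit show the kinds of sequence found. The first 2 are single-copy members, each centred on the summit of 1 list (sgCtrl for *AOPEP*, sgSNHG1 for *KCNJ6*) and among the 10 of highest −log10 p there, and are shown because one is dense in CpG and the other is not. All windows are on the plus strand of GRCh38, and capitals in these 2 mark CpG dinucleotides. The window of *AOPEP*, an aminopeptidase gene, lies at chr9:95005154-95005353 and holds 36 CpG, and that of *KCNJ6*, a potassium channel gene, lies at chr21:37711071-37711270 and holds 6.
AOPEP: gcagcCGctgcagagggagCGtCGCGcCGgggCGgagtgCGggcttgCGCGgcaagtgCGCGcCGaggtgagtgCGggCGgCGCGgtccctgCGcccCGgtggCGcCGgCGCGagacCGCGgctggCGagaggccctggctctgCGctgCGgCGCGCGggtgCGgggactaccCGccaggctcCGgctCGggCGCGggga
KCNJ6: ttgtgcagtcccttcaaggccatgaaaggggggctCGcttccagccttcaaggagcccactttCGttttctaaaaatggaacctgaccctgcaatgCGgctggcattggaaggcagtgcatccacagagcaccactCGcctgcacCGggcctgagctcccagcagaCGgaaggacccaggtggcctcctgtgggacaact
The next 3 windows show in capitals the E-box CAGCTG, chosen by shares within a common range of GC content. There it exceeded intron windows by most percentage points in sgCtrl members. Each is the sgCtrl member of highest −log10 p that holds it in *HDAC4* (chr2:239239905-239240104), *ALK* (chr2:29581441-29581640) and *GSE1* (chr16:85221881-85222080).
HDAC4: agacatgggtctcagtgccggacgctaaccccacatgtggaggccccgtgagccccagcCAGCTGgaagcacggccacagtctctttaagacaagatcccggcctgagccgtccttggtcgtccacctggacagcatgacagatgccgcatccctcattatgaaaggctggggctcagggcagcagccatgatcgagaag
ALK: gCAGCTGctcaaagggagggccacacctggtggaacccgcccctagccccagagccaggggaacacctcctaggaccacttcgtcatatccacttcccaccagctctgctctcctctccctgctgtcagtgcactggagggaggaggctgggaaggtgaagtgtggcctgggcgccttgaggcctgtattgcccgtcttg
GSE1: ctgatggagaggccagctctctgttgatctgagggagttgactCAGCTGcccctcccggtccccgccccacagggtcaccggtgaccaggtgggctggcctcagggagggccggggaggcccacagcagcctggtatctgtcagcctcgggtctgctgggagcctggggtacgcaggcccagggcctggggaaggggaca
The following 2 are tandem repeats, and capitals mark every base in a stretch of 12 bases that occurs again in the same window. The window in *PTPRN2* (chr7:158151350-158151549) had a peak in sgCtrl only, and that in *CACNA1C* (chr12:2255866-2256065) in sgSNHG1 only.
PTPRN2: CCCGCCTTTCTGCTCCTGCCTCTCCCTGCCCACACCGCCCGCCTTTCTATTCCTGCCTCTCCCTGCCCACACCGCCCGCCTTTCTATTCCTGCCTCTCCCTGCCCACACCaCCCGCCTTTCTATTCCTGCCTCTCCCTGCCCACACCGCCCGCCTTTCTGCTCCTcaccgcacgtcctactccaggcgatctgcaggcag
CACNA1C: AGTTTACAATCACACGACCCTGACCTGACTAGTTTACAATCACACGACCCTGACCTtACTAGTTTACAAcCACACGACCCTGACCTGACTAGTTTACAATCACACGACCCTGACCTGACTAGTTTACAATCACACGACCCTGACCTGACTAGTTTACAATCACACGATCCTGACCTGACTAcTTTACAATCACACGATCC
The last shows, with CpG in capitals, a member of low GC content in *IQCJ-SCHIP1* (chr3:159828894-159829093, 3 CpG), which was called in sgSNHG1 alone.
IQCJ-SCHIP1: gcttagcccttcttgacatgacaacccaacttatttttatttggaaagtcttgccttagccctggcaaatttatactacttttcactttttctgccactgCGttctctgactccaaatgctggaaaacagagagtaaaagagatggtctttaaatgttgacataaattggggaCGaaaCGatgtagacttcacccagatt

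Intronic members were fewer in sgSNHG1. They made up 28.5% (28.2 to 28.9) of the sgCtrl list and 25.3% (24.9 to 25.6) of the sgSNHG1 list, and their number in sgSNHG1 was 0.694 times that in sgCtrl (0.678 to 0.710). The bases they covered went from 8282480 to 5215349, a ratio of 0.630. Exonic peaks far from start sites had a ratio of 0.680 (0.654 to 0.707), intergenic peaks 0.764 (0.746 to 0.782) and peaks within 5000 bp of a start site 0.897 (0.880 to 0.914), against 0.784 for all peaks. The intervals of the intronic and the exonic ratio overlapped, and those of the other classes lay above both.

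The intronic ratio depended on where the lists were cut. When the sgCtrl list was cut to its 49412 peaks of highest −log10 p, 13255 members remained, and the intronic ratio became 0.942 (0.919 to 0.965), beside 0.882 for exonic, 1.03 for intergenic and 1.05 for start-site peaks. The lowest −log10 p kept in sgCtrl was 10.6, while sgSNHG1 peaks from 6 on stayed. Because this cut sets the ratio over all peaks to 1, it cannot show what the lengths of the lists contributed. The order of the classes stayed the same. The ratio for members was below that for other peaks on 22 of 22 chromosomes with the whole lists and on 19 of 22 with lists of equal size. At a −log10 p of 10 or more in both lists, the intronic ratio was 0.632.

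The 1000 sgCtrl members nearest to the limit of 5000 bp (5004 to 6415 bp) had a median fold enrichment of 3.08 and a median −log10 p of 13.4, and 51.7% overlapped an sgSNHG1 peak. The 1000 sgCtrl peaks just on the other side (4220 to 5000 bp) had medians of 3.00 and 13.8, and 51.8% were shared. In sgSNHG1 77.5% of the 1000 members nearest the limit (5003 to 7161 bp) and 81.4% of the 1000 peaks just on the other side (3839 to 5000 bp) were shared, with a median GC content of 63.5% and 65.5%. The median distance of a member from a start site was 25063.5 bp in sgCtrl and 25471 bp in sgSNHG1, and the farthest lay at 962905 bp and at 999853 bp.

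Members were short and modest in height. The median length was 354 bp in sgCtrl and 330 bp in sgSNHG1. The median fold enrichment, the height of the summit over the local background, was 3.48 in both lists, with quartiles of 2.80 and 4.34 in sgCtrl and 2.84 and 4.24 in sgSNHG1. A median of 50 fragments covered the summit in sgCtrl, over a background of 13.2, and 45 in sgSNHG1, over a background of 12.03. The median −log10 p was 13.2 and 12.1, beside 19.7 and 21.4 for start-site peaks, so that the strength of start-site peaks moved the other way.

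Of the sgCtrl members, 9063 (50.4%, 49.6 to 51.1) had a base in common with an sgSNHG1 peak, which is called shared here, and 8927 (49.6%) had none. Across all sgCtrl peaks 38.7% had none. Of the sgSNHG1 members 9243 (74.1%, 73.3 to 74.8) were shared and 3238 (25.9%) were not, against 20.6% of all sgSNHG1 peaks. The share of sgCtrl peaks found again was 54.2% for exonic, 55.3% for intergenic and 76.1% for start-site peaks. Unshared members were the weaker ones, with a median −log10 p of 11.2 against 16.9 for shared members in sgCtrl and 10.3 against 13.1 in sgSNHG1. Of the unshared members, 7535 in sgCtrl and 2373 in sgSNHG1 lay more than 1 kb from any peak of the other list.

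Stronger members were found again more often. Of the 3908 sgCtrl members with a −log10 p of 6 to 10, 21.3% were shared, of the 7113 from 10 to 15 38.1%, of the 3337 from 15 to 20 66.1%, of the 2205 from 20 to 30 87.4% and of the 382 at 50 or more 98.2%. Start-site peaks of sgCtrl were shared more often at each strength, with 52.3% from 10 to 15. In sgSNHG1 they were shared less often than members from 15 to 20 (83.1% and 86.8%) and from 20 to 30 (90.2% and 93.8%). The numbers themselves behaved differently at the top. Members of 6 to 10 numbered 3908 and 3586, a ratio of 0.918. In contrast, members at 50 or more numbered 382 and 137, a ratio of 0.359 (0.295 to 0.436). Of these strong members 42.7% in sgCtrl and 24.1% in sgSNHG1 were tandem repeats over more than 50% of the window. Their median GC content was 73.5% and 66.5%. Among start-site peaks of this strength 1.00% and 0.405% were such repeats. Start-site peaks at 50 or more numbered 4999 in sgCtrl and 5426 in sgSNHG1, a ratio of 1.09 (1.04 to 1.13). Exonic and intergenic peaks at 50 or more had ratios of 0.701 and 0.810. From 30 to 50 the ratio was 0.520 for members, 0.433 for exonic, 0.528 for intergenic and 0.901 for start-site peaks. Nearly all of the strong intronic members of sgCtrl thus had a peak in sgSNHG1, but with a lower −log10 p. Where the mean of the pair was 30 to 50, the median was 42.5 in sgCtrl and 30.5 in sgSNHG1.

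At shared members the level was slightly lower in sgSNHG1. The median log2 ratio of the fold enrichment (sgSNHG1 over sgCtrl) was -0.07, with quartiles of -0.25 and 0.09, and 61.5% of pairs were lower in sgSNHG1. The median was -0.03 for all shared peaks, -0.07 for exonic, -0.09 for intergenic and 0.02 for start-site peaks. The median number of fragments at the summit was 62 in sgCtrl and 49 in sgSNHG1 for members, and 82 and 78 for start-site peaks. Fold enrichment fell to 0.5 times or less at 17 shared members and rose at least 2-fold at 2, beside 0.163% and 0.284% of all shared peaks. Grouped by the mean −log10 p of the pair, the median for members was -0.01 from 6 to 12, -0.08 from 12 to 20, -0.14 from 20 to 30, -0.17 from 30 to 50 and -0.09 at 50 or more, and for start-site peaks it was 0.00, -0.02, 0.03, 0.08 and 0.03.

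The shared members with the widest change in either direction were in unlike sequence. The largest falls were in *CLCN3*, a chloride/proton exchanger gene, with a fold enrichment of 13.0 and 5.13, *MAPKAP1*, which encodes the mTORC2 subunit SIN1, with 9.18 and 3.71, and *HIVEP2*, a zinc finger gene, with 12.7 and 5.66. The next were in *LSAMP*, a neuronal adhesion gene, with 9.53 and 4.24, and *ATP6V1D*, a proton pump subunit gene, with 12.5 and 5.66. All 5 windows had a GC content between 72% and 79.5%. The largest rises were in *FAR2*, a fatty acyl reductase gene, from 3.57 to 8.14, *EFCAB5*, from 4.07 to 8.48, *PRRX2*, a homeobox gene, from 3.11 to 6.11, *ENOX1*, from 4.24 to 7.60, and *BCL7C*, a subunit gene of the SWI/SNF complexes, from 2.83 to 4.99. Their GC content ran from 49.5% to 65.5%. These 10 peaks were chosen after their values were seen.

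Members stood out from the introns around them by base composition. The median GC content of the 200 bp at the summit was 62.0% in sgCtrl and 61.5% in sgSNHG1, against 48.0% and 47.5% in windows 2000 bp away on either side and 40.0% in 480763 windows spread over eligible intron sequence. Of the members 62.0% and 59.7% had a GC content of 60% or more, which only 2.28% of intron windows reach. Under 45% GC lay 0.300% and 0.985% of the members and 67.8% of the intron windows. The ratio of observed to expected CpG was low at 0.298 and 0.299, above 0.174 in intron windows and below 0.658 and 0.704 at start-site peaks.

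The lists differed along the GC scale. Members under 45% GC numbered 54 in sgCtrl and 123 in sgSNHG1, a ratio of 2.28 (1.65 to 3.14). From 45 to 50% the ratio was 1.03, from 50 to 55% 0.774, from 60 to 65% 0.624 (5279 and 3296 members) and at 70% or more 0.789 (2114 and 1668). Start-site peaks followed a like curve at a higher level, from 2.92 under 45% to 0.783 at 60 to 65% and 0.946 at 70% or more. Of the sgSNHG1 members under 45% GC 25.2% were shared, and of those at 70% or more 95.3%. Unshared sgSNHG1 members had a median GC content of 57.0%, below the 63.0% of the shared ones. Whether base composition, which also affects the yield of a sequencing library, plays a part in the gain of AT-rich members was not tested.

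Part of the members lay in sequence that recurs. In 1182 sgCtrl members (6.57%) and 891 sgSNHG1 members (7.14%) more than 50% of the 200-bp window was made of 12-base stretches that occur again in the window, as in *PTPRN2* and *CACNA1C* above. Among intergenic peaks the share was 6.90% and 7.11%. It was 0.656% in intron windows, and at 70% GC or more it was 40.2% of intron windows and 33.5% and 34.5% of the members. These members were shared more often, 70.2% in sgCtrl and 92.1% in sgSNHG1, than the others with 49.0% and 72.7%. Their number ratio was 0.754 (0.691 to 0.822), beside 0.690 (0.673 to 0.706) for the others.

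Copies elsewhere in the genome were counted for 5 stretches of 30 bases per window. By the median of the 5, 79.0% of sgCtrl members and 78.0% of sgSNHG1 members were of single copy, against 87.4% of intron windows and 87.8% of flanking windows. Of the intergenic peaks 76.1% and 74.2% were of single copy. Members with 100 copies or more made up 7.49% and 7.43%, against 3.67% of intron windows. The number ratio changed little, at 0.685 (0.668 to 0.703) for single-copy members and 0.727 (0.692 to 0.763) for the rest. The height did change. At 70% GC or more, the 872 sgCtrl members with several copies had a median fold enrichment of 6.79 and the 716 of sgSNHG1 one of 5.34, while single-copy members had 3.70 and 3.71. The median log2 ratio at their shared peaks was -0.36 (quartiles -0.53 and -0.16, 88.1% lower) with several copies and -0.14 (-0.32 and 0.03, 70.9% lower) with 1 copy. At intergenic peaks of the same GC content it was -0.28 and -0.14, and at start-site peaks -0.18 and 0.01. How reads with several equal hits were placed in these ChIP-seq libraries is not given in the sources used here, and their part in the result was not tested.

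Short motifs were searched on both strands of the 200-bp windows. CAGCTG, an E-box bound by neuronal basic helix-loop-helix factors, occurred in 20.8% of sgCtrl and 19.9% of sgSNHG1 members, in 10.5% of windows flanking them and in 6.74% of intron windows. Intergenic peaks held it in 23.6% and 22.4%. Within 55 to 65% GC it was in 21.1% and 20.8% of members and in 17.4% of 29512 intron windows, a smaller difference. This range does not match GC content in full. Of its intron windows, 21707 lay at 55 to 60% and 7805 at 60 to 65%. The sgCtrl members there numbered 4020 and 5279, and the sgSNHG1 members 2646 and 3296. The part of base composition in the differences within the range was not tested. GGGCGG, bound by SP and KLF factors, was in 19.8% and 20.5% of members and 2.51% of intron windows. Within 55 to 65% GC the shares were 11.7%, 11.1% and 11.5%. CCACNAG, part of the CTCF motif, was in 14.5% and 14.0% of members and 6.74% of intron windows. Within the same range the shares were 15.8%, 15.3% and 14.1%.

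AT-rich motifs were scarce. AGATAA, recognised by GATA factors, was in 1.56% and 1.77% of members against 14.7% of intron windows. Within the GC range used above it was in 1.73% and 1.85% against 2.95%. TAATTA, recognised by homeodomain factors, was in 0.245% and 0.457% of members against 8.64% of intron windows. Within the same range it was in 0.151% and 0.303% against 0.640%. ACAAT, part of the SOX motif, was in 7.46% and 8.12% against 37.7%, and within that range in 7.85% and 8.36% against 10.8%. Intron windows lay more often at the lower end of this range than members did, so that GC content was not matched. The part of base composition in these remaining gaps was not tested. In unshared sgSNHG1 members, which have a lower GC content, AGATAA was in 3.12%, TGANTCA, the AP-1 motif, in 4.08% and CAGCTG in 14.9%, beside 1.30%, 2.72% and 21.7% of shared sgSNHG1 members. Of the other motifs searched, CATCTG (E-box), CACGTG (E-box), GGAATG (TEAD), TGTGGT (RUNX), CGGAAG (ETS), CCAAT and the paired homeodomain motif were in 13.6%, 4.64%, 7.84%, 14.6%, 4.65%, 10.1% and 0.0167% of sgCtrl members and in 12.8%, 1.86%, 10.5%, 13.8%, 1.58%, 26.4% and 0.960% of intron windows. Within the same GC range the gap narrowed for CCAAT, with 12.2% of sgCtrl members and 14.6% of intron windows. It also narrowed for GGAATG, with 9.36% and 9.84%. A match of these letters is not a bound site.

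Eligible intron sequence covered 962 Mb, in which members lay at a density of 18.7 per Mb in sgCtrl and 13.0 per Mb in sgSNHG1. The density ran from 4.90 per Mb on chromosome 18 to 46.1 per Mb on chromosome 22 in sgCtrl. It rose towards the chromosome ends, with 86.1 and 56.9 per Mb in the last 2 Mb, 56.0 and 38.5 from 2 to 5 Mb, and 11.9 and 8.75 beyond 50 Mb. The last 2 Mb held 12.1% and 11.5% of the members in 2.62% of the intron bases, and 26.1% and 25.1% of the members in tandem repeats. Within genes, the first intron of the canonical transcript held 20.9% and 21.7% of the members in 18.5% of the bases, at 21.2 and 15.2 per Mb. The number ratio went from 0.720 in the first intron to 0.659 in the fifth or later.

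The number ratio lay between 0.636 (chromosome 22) and 0.764 (chromosome 11) on every chromosome except 4, where 654 and 317 members gave 0.485. On the long arm of chromosome 4 members went from 298 to 74, a ratio of 0.248 (0.193 to 0.320), while other peaks there had a ratio of 0.468. The short arm had 356 and 243 members, a ratio of 0.683. At shared members the median background under the summit was 9.09 fragments in sgCtrl and 4.73 in sgSNHG1 on the long arm, 17.3 and 15.1 on the short arm and 15.5 and 13.3 at all members. The background of the long arm thus fell more than elsewhere, with a median log2 ratio of -0.56 beside -0.23 at all members, and the part of DNA copy number in this was not tested. The sgSNHG1 background of the long arm was close to 4.66, a value that recurred at isolated sgSNHG1 members such as those in *CACNA1C* and *TMC2*. In sgCtrl a value of 4.89 recurred at the isolated members in *SCFD2*, *CNTLN* and *UBA6*. Each value may be the floor of its list, so that the fall on the long arm may be understated. Without this arm and the short arm of chromosome 9 (109 and 59 members), the number ratio of all members was 0.702.

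Members lay in 5148 protein-coding genes in sgCtrl and 4218 in sgSNHG1, of 19111 on these chromosomes. In both lists were 3763 host genes, in sgCtrl alone 1385 and in sgSNHG1 alone 455. Host genes were long, with a median of 82.3 kb and 89.9 kb against 27.9 kb for all protein-coding genes. A few genes held many members. In sgCtrl 399 genes had 10 or more and held 40.7% of the members, and in sgSNHG1 226 genes held 31.5%.

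With the whole lists most host genes had fewer members in sgSNHG1. Of all hosts 3183 had fewer, 1463 as many and 957 more. With lists of equal size 1924 had fewer, 1498 as many and 1646 more. Among the 1125 with 5 or more in a list, 303 (26.9%) fell to 0.5 times or fewer and 29 (2.58%) rose at least 2-fold. These calls depended on where the lists were cut. With lists of equal size 104 fell and 77 rose among 910 genes. At a −log10 p of 10 or more in both lists, 301 fell and 18 rose. With the whole lists, 22 of 43 genes on chromosome 4 fell to 0.5 times or fewer. The 29 genes that rose were long, with a median of 234 kb, were sparse in members, with a median of 1.02 per 100 kb of intron in sgCtrl and 3.41 in sgSNHG1, and held 170 sgSNHG1 members with a median GC content of 55.5%. The 303 genes that fell had a median of 6.98 and 2.50 per 100 kb, and their 939 sgSNHG1 members had a median GC content of 62.0%. Both groups were picked by their numbers of members in the lists, so that these densities follow in part from the choice.

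The genes with most members had varied roles. *PTPRN2*, a phosphatase-like receptor of secretory vesicles, held 146 and 91 members, of which 31 and 24 were tandem repeats. *GSE1*, a subunit of a histone demethylase and deacetylase complex, held 108 and 101. *MAD1L1*, of the spindle checkpoint, held 106 and 72, which also lie in the overlapping gene *ENSG00000286192*. *DLGAP2*, a scaffold of the postsynaptic density, held 82 and 53, with 32 and 22 in tandem repeats. *TRAPPC9*, of vesicle transport, held 77 and 51, and *RPTOR*, of the mTORC1 kinase complex, 76 and 65. *CAMTA1*, a calmodulin-binding transcription activator in a region of chromosome 1 often deleted in neuroblastoma, held 74 and 50. *HDAC4*, a histone deacetylase, held 66 and 53, *TSNARE1*, a gene of the SNARE family, 61 and 44 and *MSI2*, an RNA-binding protein of progenitor cells, 54 and 48.

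Relative to the eligible intron sequence, *TSNARE1* had the densest members of these, at 35.5 per 100 kb in sgCtrl, followed by *MAD1L1* at 28.04, *GSE1* at 24.2, *HDAC4* at 22.6 and *RPTOR* at 19.5, beside 1.87 per 100 kb over all introns. In *HDAC4* 29 of the members lay in intron 2 in either list. In *PTPRN2* intron 12 went from 30 members to 18 and intron 11 from 24 to 12, while intron 2 held 24 and 23. Of the *GSE1* members 97 and 92 lay in the part of the gene outside its canonical transcript.

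The largest losses were in *PTPRN2*, which fell by 55 members, *MAD1L1*, which fell by 34, *AGAP1*, which encodes a GTPase-activating protein of Arf and held 50 and 20, and *DLGAP2*, which fell by 29. Intron 1 of *AGAP1* went from 23 members to 12. With lists of equal size *PTPRN2* had 119 and 91, *MAD1L1* 88 and 72, *AGAP1* 29 and 20 and *DLGAP2* 53 in both. The largest gains were of 6 members each, in *CLPB*, a mitochondrial chaperone gene (21 and 27), *GABRG3*, a GABA receptor subunit gene (7 and 13), *FGF14*, which encodes a partner of sodium channels (3 and 9), *OPCML*, a neuronal adhesion gene (3 and 9), and *RALYL*, an RNA-binding protein gene (1 and 7). With lists of equal size the difference had the opposite sign in *GSE1* (85 and 101) and *MSI2* (46 and 48). At a −log10 p of 10 or more in both lists, the difference (sgSNHG1 minus sgCtrl) was -15 in *GSE1* and -11 in *MSI2*. In *FGF14* and *OPCML* 2 of the 9 sgSNHG1 members were shared, and in *RALYL* 1 of 7.

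Genes were also grouped by function, beside the ratio of 0.694 over all members and the 26.9% of host genes that fell to 0.5 times or fewer. Among 26 adrenergic transcription factors, which define the sympathetic state of neuroblastoma, 9 genes in either list hosted 61 and 41 members, a ratio of 0.672 (0.452 to 0.999), and 6 genes had fewer, 1 as many and 3 more in sgSNHG1. *ZNF536*, a zinc finger gene, held 19 and 12, *EYA1*, a transcriptional coactivator gene, 11 and 3, *KLF13*, a zinc finger gene, 9 and 9 and *CUX2*, a homeobox gene, 8 and 6. The 2 strongest *EYA1* members were in both lists, with a fold enrichment of 6.35 and 5.21 at the first and 6.32 and 6.09 at the second. Among 30 mesenchymal transcription factors, 12 and 10 genes hosted 68 and 57 members, a ratio of 0.838 (0.590 to 1.19), and 7 genes had fewer, 3 as many and 2 more. *TEAD1* and *TEAD4*, whose products act with YAP in the Hippo pathway, held 17 and 14 and 7 and 7. *TCF7L2*, of Wnt signalling, held 9 and 9, and *MAML2*, a Notch coactivator gene, 7 and 9. The intervals of these groups overlap each other and include 0.694.

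Axon guidance genes held 164 and 124 members, a ratio of 0.756 (0.599 to 0.955). Of these genes 15 had fewer, 5 as many and 5 more in sgSNHG1, and 3 of their 13 genes with 5 or more members fell to 0.5 times or fewer. Among them *SLIT3*, a repellent ligand, held 23 and 16. Of the netrin receptors *UNC5A* held 18 and 10, *UNC5B* 15 and 14 and *UNC5C*, on the long arm of chromosome 4, 15 and 2. Both *UNC5C* members of sgSNHG1 were in intron 12, and introns 1 and 2, with 8 and 3 members in sgCtrl, held 0. The strongest, of intron 12, had a fold enrichment of 4.21 in sgCtrl and 3.87 in sgSNHG1.

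Neuronal adhesion genes held 322 and 242 members, a ratio of 0.752 (0.636 to 0.888), with fewer in 15 genes and more in 9, and with *TENM4* at 32 and 23, *LSAMP* at 26 and 21 and *CNTNAP2* at 15 and 19. Ion channel and receptor genes held 175 and 127, a ratio of 0.726 (0.577 to 0.912), with fewer in 17 genes and more in 7, and with the calcium channel *CACNA1B* at 27 and 13, the potassium channels *KCNH1* at 25 and 15 and *KCNMA1* at 14 and 14, and the glutamate receptor *GRID1* at 24 and 13. Genes of the cytoskeleton and growth cone held 251 and 190, a ratio of 0.757 (0.627 to 0.914), with fewer in 21 genes and more in 8. There the kinesin gene *KIF26B* had 58 and 42, *TRIO*, a guanine nucleotide exchange factor gene, 19 and 14, *DPYSL2* 15 and 14 and *NAV2* 14 and 8. Neuronal RNA-binding proteins held 107 and 92, a ratio of 0.860 (0.651 to 1.14), with fewer in 9 genes and more in 5, and with *RBFOX2* at 12 and 11, *RBFOX3* at 10 and 5 and *CELF4* at 6 and 8.

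Chromatin regulators held 249 and 192 members, a ratio of 0.771 (0.639 to 0.931), with fewer in 18 genes and more in 6. *AUTS2*, of a Polycomb complex, had 24 and 17 and the histone methyltransferase gene *DOT1L* 15 and 12. Driver and susceptibility genes of neuroblastoma held 228 and 153, a ratio of 0.671 (0.547 to 0.824). Of these genes 10 had fewer, 5 as many and 2 more, and 5 of their 9 genes with 5 or more members fell to 0.5 times or fewer. *SHANK2*, a postsynaptic scaffold gene, had 56 and 42, and *TIAM1*, a Rac exchange factor gene, 13 and 9. *ALK*, the receptor kinase mutated in familial neuroblastoma, had 34 members in sgCtrl and 17 in sgSNHG1. Intron 1 of *ALK* held 6 in sgCtrl and 0 in sgSNHG1, intron 3 held 7 and 4, and intron 4 held 7 and 5. At the strongest *ALK* member, in intron 11, the fold enrichment was 4.84 with 163 fragments in sgCtrl and 4.26 in sgSNHG1. At the second, also in intron 11, it was 4.15 and 2.29. The strongest *ALK* member of sgSNHG1, in intron 4, had a fold enrichment of 4.73 and a GC content of 45.5%, and no sgCtrl peak overlapped it. With lists of equal size the difference had the opposite sign in *ZNF536* (9 and 12), *CUX2* (4 and 6), *TEAD1* (11 and 14), *UNC5B* (9 and 14), *LSAMP* (20 and 21), *RBFOX2* (9 and 11), *RBFOX3* (4 and 5) and *AUTS2* (16 and 17). It was 0 or 1 in *TENM4* (23 and 23), *TRIO* (14 and 14), *DPYSL2* (14 and 14), *SLIT3* (17 and 16) and *TIAM1* (10 and 9). At a −log10 p of 10 or more in both lists, the difference (sgSNHG1 minus sgCtrl) was -4 in *ZNF536*, -1 in *TEAD1*, -1 in *UNC5B* and -6 in *LSAMP*. It was -5 in *RBFOX3*, -4 in *AUTS2*, 0 in *CUX2* and 1 in *RBFOX2*. No group had an interval wholly above 1 or apart from the ratio over all members.

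The members of highest −log10 p were shared by the lists. In *AOPEP* the peak at chr9:95004326-95005613 had a fold enrichment of 11.7 with 347 fragments in sgCtrl and of 10.2 with 362 in sgSNHG1. *ASAP1* had 9.07 and 9.55. The windows of these 2 had a GC content of 81.5% and 84.0% in sgCtrl, had 1 copy in the genome and lay 49023 and 28971 bp from a protein-coding start site. Other strong sgCtrl members lay in sequence with several copies. Fold enrichment was 40.8 and 43.3 in *CCDC200* at a median of 10 copies, 19.98 and 21.8 in *DUX4* at 4, 10.2 and 10.3 in *TTC34* at 4, and 17.5 and 15.2 in *CHRFAM7A* at 2. *EIF4G3* had 13.0 and 11.3 at 37 copies, and *PPP2R5E*, of protein phosphatase 2A, 12.1 and 8.09 at 247 copies.

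In sgSNHG1 the list of the 10 strongest members took in *KCNJ6*, whose peak 205262 bp from a start site had a fold enrichment of 10.5 in sgCtrl and 13.3 in sgSNHG1, *ZMIZ1*, a coregulator gene, with 5.06 and 5.62, and *ESRRG*, a nuclear receptor gene, with 11.0 and 10.5. The windows of these 3 were of single copy.

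The 5 highest members by fold enrichment in each list were also taken among those with no peak of the other list within 1 kb. In sgCtrl they were 2 peaks of *SCFD2* on the long arm of chromosome 4, with a fold enrichment of 10.2 and 8.65 at 217 and 32 copies, the tandem repeat of *PTPRN2* with 9.67, *CNTLN*, a centrosomal gene, with 9.50 at 20 copies, and *UBA6*, a ubiquitin-activating enzyme gene on chromosome 4, with 9.33. The *PTPRN2* peak rested on 174 fragments and the other 4 on 50 to 59. In sgSNHG1 they were 2 peaks of *CCDC200* with 17.5 and 7.60 at 13 copies, the tandem repeat of *CACNA1C*, an L-type calcium channel gene, with 8.31, *TMC2* with 7.95 at 13 copies, and *IQCJ-SCHIP1* with 7.37. The last had 88 fragments, a single copy and a GC content of 39.5%, and the nearest sgCtrl peak was 10338 bp away.

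Host genes usually had an acetylated promoter. Of the hosts 86.4% in sgCtrl and 86.1% in sgSNHG1 had a peak within 3000 bp of a start site, against 69.4% and 67.6% of all protein-coding genes. Members in hosts with a promoter peak in both lists made up 89.0% and 89.2% and had a number ratio of 0.696 (0.679 to 0.713). In the 194 hosts with a promoter peak in sgCtrl alone members went from 425 to 238, a ratio of 0.560 (0.478 to 0.656), and in the 137 with one in sgSNHG1 alone from 279 to 235, a ratio of 0.842 (0.708 to 1.00). These intervals did not overlap, but they cover counting error only and are not a test. Promoter peaks and members came from the same lists, so that the split is not independent of the ratios. Where neither list had a promoter peak, the ratio was 0.677 (0.621 to 0.738). Start sites of long non-coding RNAs lay within 1 kb of 1.61% and 1.65% of the members.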

How the data were processed

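The deposited H3K27ac peak lists of the neuroblastoma line were analysed, 1 per group of 2 ChIP-seq samples. The sources state that reads were trimmed with cutadapt and aligned to GRCh38 with BWA, and that the authors combined the alignments of both replicates of a group before a single MACS2 run (paired ends, p 1e-06, duplicates kept). Each deposited list gives per peak a fold enrichment (a ratio to the local background), a −log10 p, a −log10 q (not used), an integer score and the summit offset, all made by the authors, and no input library is named. The depth per sample is unknown. The genotype, the pooled depth and the clone cannot be told apart.

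Peak midpoints were placed against GENCODE release 44 with Python 3.11.15, numpy 2.4.6, pandas 2.3.3 and pysam 0.24.0. A peak was shared when it overlapped a peak of the other list by at least 1 bp. Fragments at the summit were recovered from the fold enrichment and −log10 p under a Poisson model with a pseudocount of 1, and came out whole within 0.001 for 99.7% of sgCtrl and 99.6% of sgSNHG1 peaks. GC content, motifs and repeats were read from 200 bp of reference around the summit, and copies from 5 stretches of 30 bases on both strands of chromosomes 1 to 22, X and Y. Ratios of numbers have Poisson intervals and shares have Wilson intervals, both at 95% and covering counting error only, and the scripts were tested on simulated data. Since the replicates were pooled, no test across samples was possible.

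Named genes were the 10 hosts with most members in each list, the 5 that fell most and the 5 that rose most, the 10 members of highest −log10 p in each list, the 5 of highest fold enrichment over 1 kb from the other list, and up to 4 genes with most sgCtrl members in each of 9 gene lists. Ties were broken by summed −log10 p. Some genes and sequences that the rule picks are not reported here. The members and the lists were chosen with earlier results of these data known, and the alternatives on start sites of all transcripts and on recurring sequence were chosen after seeing the data.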

Additional observations from a re-analysis of the deposited data

How the results depend on the processing

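No paired analysis was possible because each group has 1 list from both of its replicates, and for the same reason no replicate could be left out. With peaks of −log10 p 10 or more, the number ratio was 0.632, the median log2 ratio of fold enrichment -0.057, the share of the list 27.2% in sgCtrl and 23.1% in sgSNHG1, the shared members 46.8% and 75.1%, and the genes with at least 2-fold more members 18. With lists of equal size these were 0.942, -0.11, 26.8% for sgCtrl, 60.4% and 65.7%, with 104 genes at least 2-fold lower and 77 higher, and *RBFOX3* reversed to a difference of 1. The cause was not tested. The share of the list was 30.7% and 27.1% with a distance of 3000 bp, 23.3% and 20.7% with 10000 bp, and 20.4% and 18.2% with start sites of every annotated gene. With no base in an exon the ratio was 0.713, the share of the list 24.97% and 22.7%, and the shared members 49.6% and 72.8%. Shared members were 39.7% and 57.2% with a reciprocal overlap of 50%, and 58.1% and 81.0% within 1 kb, where the median log2 ratio was -0.047. In windows of 500 bp, 44.2% and 44.7% of members had a GC content of 60% or more. Without members in recurring sequence, an alternative chosen after seeing the data, the median log2 ratio was -0.049.

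The ratio of member numbers stayed below 1 in every alternative, from 0.632 to 0.942. Without the long arm of chromosome 4 and the short arm of chromosome 9 it was 0.702. Of 49 genes picked by the naming rule, 10 had a difference of the opposite sign with lists of equal size. Soft-masked repeats could not be used, since the reference holds upper case only, so that repeat families are not named here. With 1 pooled list per group, differences between lists cannot be set against the spread between samples. The depth per sample is unknown, and its part in what was called at low −log10 p was not tested.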

Other observations

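On chromosome X, which lies outside the definition of the members, intronic peaks over 5000 bp from a start site numbered 80 in sgCtrl and 81 in sgSNHG1, a ratio of 1.01 (0.743 to 1.38), beside 0.694 on chromosomes 1 to 22. Peaks of all classes numbered 63699 and 50119 on all chromosomes, and 63051 and 49412 on chromosomes 1 to 22. Those outside chromosomes 1 to 22 were thus also more numerous in sgSNHG1, so that the 1.01 is not shown to be particular to intronic peaks. The difference was not tested.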
